A study of Mus musculus with 8 samples.

Results

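The cytosolic ribosomal protein genes encode the proteins that, with ribosomal RNA, make up the large (Rpl, Rplp) and small (Rps, Rpsa) subunits of the cytoplasmic ribosome. They were taken from the count table by gene symbol, leaving out the Rps6k kinases and rows named as pseudogenes, and a gene was kept when it had 10 or more reads in 4 or more libraries. Of 22000 rows in the table, 83 carried such a symbol and 80 were kept, 48 of the large subunit and 32 of the small subunit. The rows left out by the read minimum were Rpl3l, Rpl10l and Rpl39l, the paralogs of Rpl3, Rpl10 and Rpl39 described in muscle and testis. All 80 kept genes also passed the low-count filter of the test used below.

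The libraries were made from poly(A)-selected RNA of the whole cortex of 8 mice, each mouse giving 1 library. Of these, 4 libraries were labelled Mef2c heterozygous and 4 wild type, and each group held 2 males and 2 females. MEF2C is a transcription factor that acts in neurons and microglia among other cells, and loss of 1 copy of the human gene causes a neurodevelopmental syndrome. The question of the study, as its title and design text put it, is what reduced Mef2c function does in the cortex. No source used here gives the age and strain of the mice, the Mef2c allele or the part of the gene that it removes. The wild type libraries are named by replicate 1 to 4 in accession order, as are the heterozygous ones. Sample titles hold animal numbers that fall into 2 separate runs, with 4 libraries in each: replicates 1 and 2 of both groups are the first run and replicates 3 and 4 the second. The labels do not say what the runs stand for.

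Total counts lay between 16092773 and 17841377 reads per library, and RNA integrity numbers between 8.6 and 9. Mef2c went against the label: its level in CPM (reads per library scaled to the same total) was 1304 ± 73.2 (SD, n = 4) under the heterozygous label and 995 ± 41.3 (SD, n = 4) under the wild type label. This was a log2 difference of 0.39 ± 0.05 (SE; edgeR quasi-likelihood adjusted p 0.000154). A two-sided exact permutation test gave p = 0.0286, the smallest that 4 against 4 libraries allow. The count covers the whole gene and does not show which part of it the reads came from. Whether labels were exchanged was not tested, and an exchange would turn every genotype direction below. The groups are therefore called by their labels throughout. Markers of neurons were abundant in all libraries (summed CPM of 8 neuronal markers 13832 to 14640). The 8 markers of cortical excitatory neurons summed to 851 to 957 CPM. Of 5 choroid plexus markers only 2 passed the low-count filter, and their sum was near 0 (1.55 to 5.57 CPM). The summed level of 9 microglial markers was 399 to 452 CPM in the libraries labelled heterozygous and 353 to 382 CPM in those labelled wild type. Of the 9, 7 were above 0 in fold change and 3 of these were called, C1qb, Ctss and C1qc, while P2ry12 (-0.06 ± 0.07) and Itgam (-0.18 ± 0.18) were below 0. Red blood cell genes lay lower in fold change, with 5 of 5 below 0 and none called, at 35.2 to 74.7 against 63.9 to 112 CPM. In whole tissue, fewer cells of a type and less RNA per cell cannot be told apart, and the part of these shifts in the values below was not tested.

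Ribosomal protein genes are expressed in every cell, and their products are needed in equal numbers, since each ribosome holds 1 copy of nearly all of them and several of the acidic stalk proteins. Their messenger RNAs typically begin with a C followed by a stretch of pyrimidines, the 5′ terminal oligopyrimidine tract. Through this tract the mTORC1 kinase pathway controls their translation together, so RNA levels and ribosome output need not move in parallel. In the brain, shifts of ribosomal protein expression have been followed in development, in neuronal activity and in models of autism.

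The start-site sequences of 5 members are shown because they include the genes that differed most between the groups, and because the pyrimidine tract lies there. They come from RefSeq promoter windows on build GRCm38.p6, from 40 bases before to 20 bases after the annotated start, 5′ to 3′ on the strand of the gene. Capitals mark the longest run of 5 or more C or T that begins with C and starts within 15 bases of the annotated start; shorter runs of the same kind are left in lower case.
Rpl38: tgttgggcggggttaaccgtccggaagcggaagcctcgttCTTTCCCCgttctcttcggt
Rps10: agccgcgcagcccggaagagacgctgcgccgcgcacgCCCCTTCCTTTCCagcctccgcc
Rps27: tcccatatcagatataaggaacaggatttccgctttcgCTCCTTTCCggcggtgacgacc
Rps2: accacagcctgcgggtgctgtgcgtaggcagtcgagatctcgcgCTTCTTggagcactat
Rps28: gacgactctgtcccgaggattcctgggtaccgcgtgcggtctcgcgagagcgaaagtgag

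The windows lie at chr11:114668540-114668599 on the plus strand for Rpl38, chr17:27635225-27635284 on the minus strand for Rps10, chr3:90213629-90213688 on the minus strand for Rps27, chr17:24720023-24720082 on the plus strand for Rps2 and chr17:33824543-33824602 on the minus strand for Rps28. Each spans the first bases of the 5′ untranslated part of the transcript and the promoter before it. The marked run covers 8 bases from the first transcribed base in Rpl38. In Rps10 it covers 13 bases and begins 3 bases before the annotated start. In Rps27 it covers 9 bases and begins 2 bases before that start. In Rps2 it covers 6 bases and begins only at base 5 of the transcript. The Rps28 window holds none that begins within 15 bases of the start. Rplp1 was not among the matched genes.

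The RefSeq table held windows for 60 of the 80 members. Of these 60, 40 had such a run in at least 1 window. Counted by window, 42 of 71 member windows (59.15%) and 38.63% of all 32851 windows in the table held one. The letters CTTTCC, searched on both strands of the whole 300-base window and able to overlap the run above, were in 49.3% of member windows and 26.56% of all windows. The letters CCGGAAG, a core that ETS-family factors are known to bind, searched the same way, were in 36.62% and 8.86%. These shares describe letters in a window and are no sites. The median genotype log2 fold change was 0.03 both in the 40 genes with a run and in the 20 without, and the median level was 97.9 CPM with a run and 150 CPM without.

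From 0.950% to 1.02% of a library's reads fell on ribosomal protein genes. Their summed level was 9826, 10288, 10151 and 10062 CPM in heterozygous replicates 1 to 4 and 9555, 10164, 9937 and 9887 CPM in wild type replicates 1 to 4. The means were 10082 ± 194 CPM and 9886 ± 251 CPM (SD, n = 4), and the groups overlapped. Wild type replicate 1 was the lowest library, and heterozygous replicate 2 the highest.

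The large subunit summed to 6107 ± 78.7 CPM in the libraries labelled heterozygous and 6024 ± 182 CPM in those labelled wild type. The small subunit summed to 3975 ± 126 CPM and 3862 ± 80.0 CPM (SD, n = 4). Both subunits overlapped between the groups. The ratio of the sums was 1.54 ± 0.0361 and 1.56 ± 0.0277, highest in heterozygous replicate 1 (1.59) and wild type replicate 2 (1.60), both males of the first run of numbers. The other 6 libraries lay between 1.52 and 1.55.

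**Figure D1:**
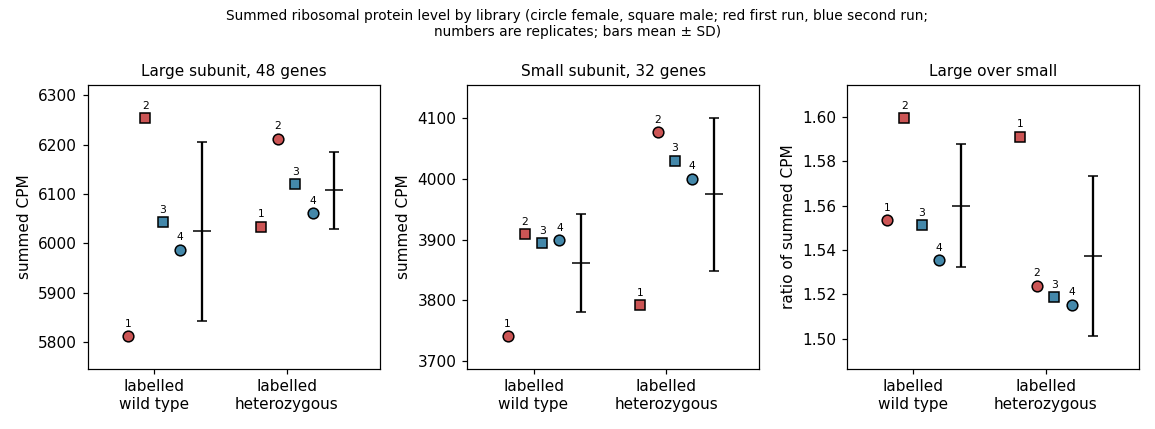
Summed level of the large-subunit genes, the small-subunit genes (CPM) and their ratio in each library, by labelled genotype, with mean ± SD beside the points (n = 4); the y axes do not start at 0. The groups overlap in all 3 panels, wild type replicate 1 is the lowest library in both sums, and heterozygous replicate 1 and wild type replicate 2 have the 2 highest ratios.

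Read counts were high enough to measure single genes closely. A member had a median of 1900 reads per library, from 40 to 7905. Per kilobase of annotated transcript, the highest levels were those of Rplp1 (547 CPM per kb), a stalk protein that helps recruit elongation factors, Rps15 (409), a protein near the decoding site, Rpl41 (259), the shortest protein of the ribosome, and Rpsa (257), also known as the laminin receptor. The lowest were Rps27l (6.57 CPM per kb), Rpl7l1 (12.02), Rps20 (19.4) and Rps15a (21.8). The annotated transcripts of Rps20 (3706 bases) and Rps15a (5130 bases) are long. Per kilobase of coding sequence these genes stood at 202 and 286 CPM per kb, while Rps27l and Rpl7l1 stood at 13 and 42.4. On the coding scale Rpl41 reached 1875 CPM per kb from a coding length of 75 bases, so its value depends strongly on which length is used.

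The members with close copies bear on how these levels can be read. Ribosomal protein genes have many processed pseudogenes in the genome, and reads from identical stretches can be dropped or assigned to a copy. A median of 56.1% of the 50-base stretches of a member's transcript also occurred in another annotated gene, and 48 members shared more than 50%. Rps27 shared 98.7% of its 50-base stretches, Rpl3 85.6%, Rps13 83.0%, Rpl36 81.1%, Rps2 79.0%, Rpl38 52.1% and Rps28 52.3%. No source used here gives the read length. Levels of these genes are therefore uncertain as absolute values. The 7 rows named as ribosomal protein pseudogenes held at most 44 reads in a library, and 3 of them held none.

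Between the genotypes, no ribosomal protein gene was called. In edgeR's quasi-likelihood test over 13879 genes, 0 of 80 members had an adjusted p under 0.05, against 0.267% of all genes (37 called). The smallest adjusted p was 0.275. At an unadjusted p under 0.05 there were 3 members, Rplp1, Rps28 and Rpl38, all higher in the libraries labelled heterozygous, and 7.24% of all genes. DESeq2's Wald test and limma-voom also called 0 members. With each combination of sex and run, which holds 1 library of each genotype, as a block, edgeR again called 0 members. It called 124 of the 13879 genes. The unadjusted p in this fit was under 0.05 for 7 of 80 members and for 1406 of the 13879 genes. The smallest adjusted p of a member was 0.0584 (Rplp1).

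The members' fold changes were small and leaned to one side. Of 80, 59 were above 0 and 21 below, beside 49.5% of all genes above 0. The median log2 fold change was 0.02 against -0.001 over all genes. The members ran from -0.12 (Rpl27) to 0.22 (Rps28). In the large subunit 32 of 48 were above 0 with a median of 0.02, and in the small subunit 27 of 32 with a median of 0.04. For 77 of the 80 members the 95% interval of the log2 fold change lay within 0.32 in either direction. The members whose interval reached further were Rps28, Rpl22l1 and Rps27l. The lean of the median differed between subsets of the libraries, and each sex holds only 2 mice per genotype. The median was -0.01 in males alone, with 34 of 80 above 0, and 0.07 in females alone, with 65 of 80. It fell to 0.01, with 48 of 80 above 0, without wild type replicate 1, and rose to 0.05, with 64 of 80, without heterozygous replicate 1.

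**Figure D2:**
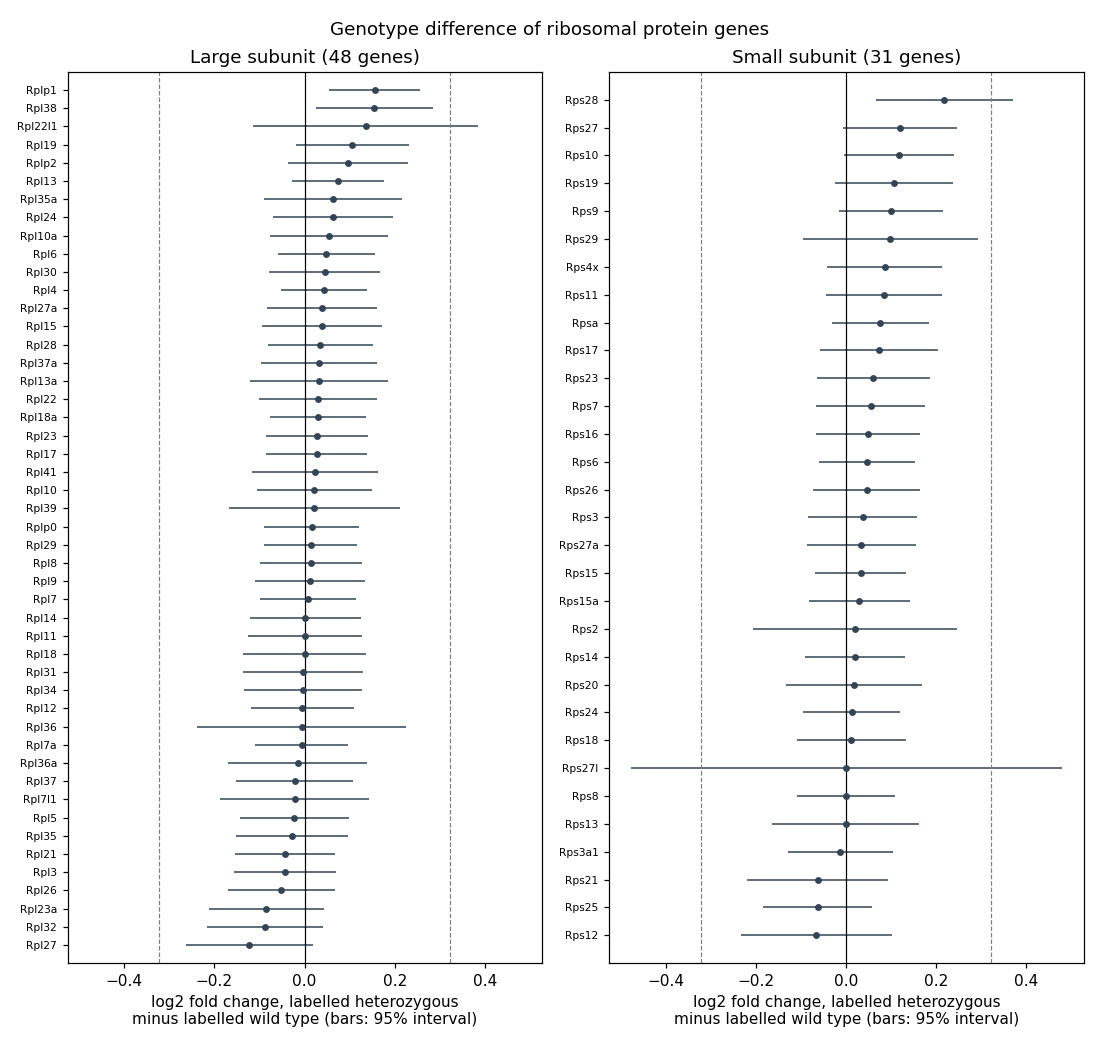
Log2 fold change of 79 of the 80 genes, libraries labelled heterozygous minus labelled wild type, with its 95% interval from edgeR, in 48 large-subunit (left) and 31 small-subunit genes (right). The solid line is 0 and the dashed lines mark a log2 fold change of 0.32 in either direction; 76 of the plotted intervals lie between the dashed lines, and Rps28, Rplp1 and Rpl38 are the members whose interval lies above 0.

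The acidic stalk, formed by P1 and P2 dimers (Rplp1, Rplp2) on the base protein P0 (Rplp0), held the member with the smallest p. Rplp1, at chromosome 9, 61913284 to 61914542, with 3 exons on the minus strand, stood at 280.5, 278.5, 297.0 and 295.5 CPM in heterozygous replicates 1 to 4 and at 258, 243, 269 and 264 CPM in wild type replicates 1 to 4. All values labelled heterozygous were above all values labelled wild type. The difference was 0.16 ± 0.05 (log2, SE), a fold of 1.11 (edgeR adjusted p 0.275). It was 0.18 in males and 0.14 in females, and 0.16 and 0.15 in the first and second run. Rplp2 had a log2 fold change of 0.10 ± 0.06 and Rplp0 one of 0.02 ± 0.05, and both overlapped between the groups.

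Rpl38, a small large-subunit protein known from the tail-short mouse and its skeletal patterning defects, stood at 71.6, 76.3, 76.8 and 78.2 CPM in heterozygous replicates 1 to 4 and at 62.3, 70.7, 70.0 and 69.1 CPM in wild type replicates 1 to 4. The groups did not overlap, though heterozygous replicate 1 lay close to wild type replicate 2. The difference was 0.15 ± 0.06 (log2, SE; edgeR adjusted p 0.539).

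Rps28, a small-subunit protein near the exit of the messenger RNA channel, had the highest fold change of the members. It stood at 47.0, 50.7, 45.9 and 49.2 CPM in heterozygous replicates 1 to 4 and at 37.9, 39.9, 40.6 and 47.3 CPM in wild type replicates 1 to 4. Wild type replicate 4 lay among the heterozygous values, so the groups overlapped, though within each of the 4 combinations of sex and run the library labelled heterozygous was the higher one. The difference was 0.22 ± 0.07 (log2, SE; edgeR adjusted p 0.359), and it was 0.33 in the first run and 0.12 in the second.

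Rps10, a protein of the small-subunit head mutated in some patients with Diamond-Blackfan anaemia, stood at 87.1, 98.6, 88.2 and 94.2 CPM in heterozygous replicates 1 to 4. In wild type replicates 1 to 4 it stood at 86.8, 85.5, 85.1 and 81.6 CPM. The groups just missed each other, since heterozygous replicate 1 and wild type replicate 1 were nearly equal. Its difference was 0.12 ± 0.06 (log2, SE; edgeR adjusted p 0.720). With Rplp1 and Rpl38 it made 3 of 80 members without overlap between the groups, all higher in those labelled heterozygous, beside 4.55% of all genes without overlap in either direction.

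The other large rises were those of Rpl22l1 (0.14 ± 0.12), the paralog of Rpl22, and Rps27 (0.12 ± 0.06), a zinc-binding protein of the small subunit. Both overlapped between the groups. The value of Rpl22l1 was 0.05 without heterozygous replicate 2, 0.07 without wild type replicate 1 and 0.21 without heterozygous replicate 4. The lowest fold changes were those of Rpl27 (-0.12 ± 0.07), Rpl32 (-0.09 ± 0.06), Rpl23a (-0.08 ± 0.06), which lies beside the exit of the peptide tunnel, Rps12 (-0.07 ± 0.08) and Rps25 (-0.06 ± 0.06), known for its part in initiation on viral internal ribosome entry sites. All 5 overlapped, and their adjusted p in edgeR lay between 0.773 and 0.965.

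**Figure D3:**
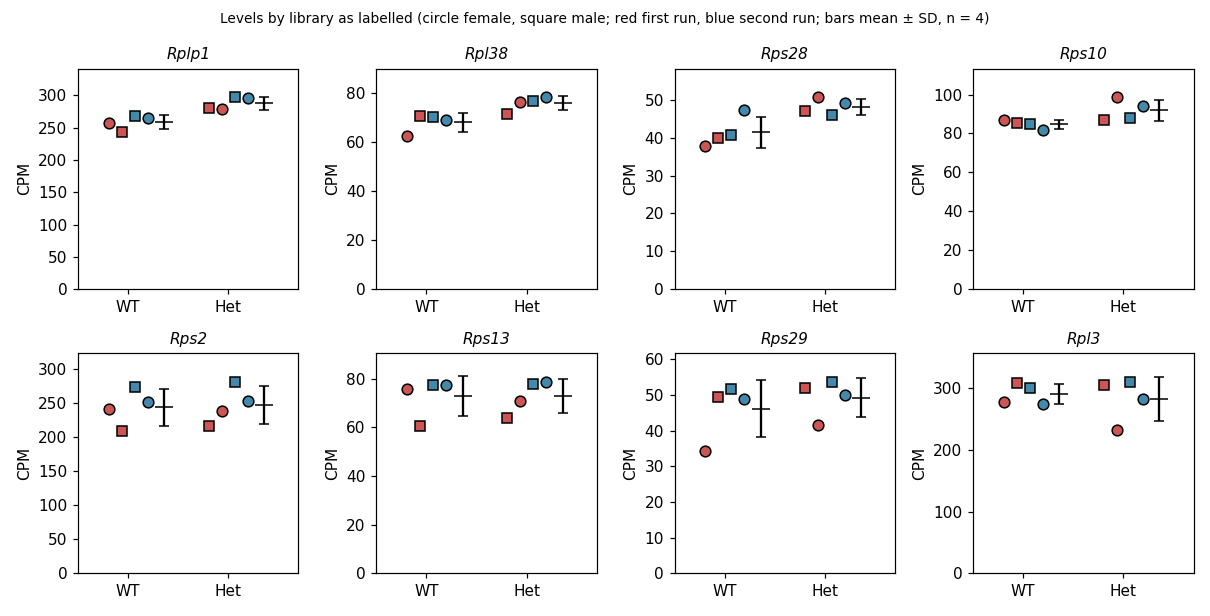
Level in CPM of 8 genes in each library by labelled genotype (WT wild type, Het heterozygous), with mean ± SD beside the points (n = 4); the y axes start at 0. Rplp1, Rpl38 and Rps10 do not overlap between genotypes, and Rps2 and Rps13 are lowest in the 2 males of the first run (red squares).

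Paralog pairs gave no called change on either side. Rpl22, which binds RNA stem loops, had a log2 fold change of 0.03 ± 0.06 from a mean of 65.0 CPM, and Rpl22l1 lay at 14.3 CPM. Rpl7 had 0.01 ± 0.05 (169 CPM) and Rpl7l1, a protein of large-subunit assembly, -0.02 ± 0.08 (31.3 CPM). Rps27 lay at 82.4 CPM and its p53-responsive paralog Rps27l at 3.28 CPM with a fold change of 0.00 ± 0.23, too few reads to bound a difference closely. Per kilobase of coding sequence, Rpl22l1 stood at 39.1 and Rpl22 at 169 CPM per kb, and Rpl7l1 at 42.4 and Rpl7 at 209.

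The partners of the tissue-restricted paralogs were also close to even. Rpl10, which joins the large subunit in its last assembly step, had a log2 fold change of 0.02 ± 0.06. Rpl39, which lines the peptide tunnel, had 0.02 ± 0.09, and Rpl3, which reaches the peptidyl transferase centre, -0.04 ± 0.05. Rps4x, the X-linked small-subunit gene, had 0.09 ± 0.06. None was called. The retrogene copy Rps27rt, which the name pattern does not take, lay at 2.51 ± 0.567 CPM and 3.20 ± 0.592 CPM (SD, n = 4), with a log2 fold change of -0.36 ± 0.25.

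Members varied less between libraries, at the median, than other genes at or above their lowest level. The median SD of log2 CPM over the 8 libraries was 0.0848 for members and 0.115 for the 11816 other genes at or above the lowest member's mean level. The median biological coefficient of variation in edgeR was 0.063 for members and 0.087 for all tested genes. Neither comparison was matched for level: the lowest member, Rps27l, had a mean of 3.28 CPM and the median member 112 CPM. Among members, the SD fell with mean level (Spearman -0.406). The part of level in these differences was not tested. Rps15a (SD 0.0359) and Rpl29 (SD 0.0373) were the steadiest members. Rps27l (0.240), Rps29 (0.216), Rpl36 (0.185) and Rpl22l1 (0.168) were the most variable, and Rps27l and Rpl22l1 were also among the lowest in reads.

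The members did not rise and fall as 1 block. The mean Pearson correlation between members over the 8 libraries was 0.173, with 67.7% of pairs above 0, as a description of libraries that share their depth scaling. The first and second principal components held 26.2% and 24.6% of the members' variance. The first set wild type replicate 1 apart, where 29 of 80 members had their lowest value, from heterozygous replicate 2, where 24 had their highest.

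On the second component heterozygous replicate 1 and wild type replicate 2, the males of the first run, lay at one end. Rps2, Rps13, Rps4x and Rpl13a were low in these libraries and lay at the opposite end of the component. The scarce Rps27l lay furthest out at the same end as these libraries, followed by Rpl3, Rps29, Rpl19 and Rpl35. Over all 7890 genes with a mean of at least 20 CPM, the same libraries were the 2 lowest on the first component, which held 27.9% of the variance and on which all males were below 0 and all females above.

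**Figure D4:**
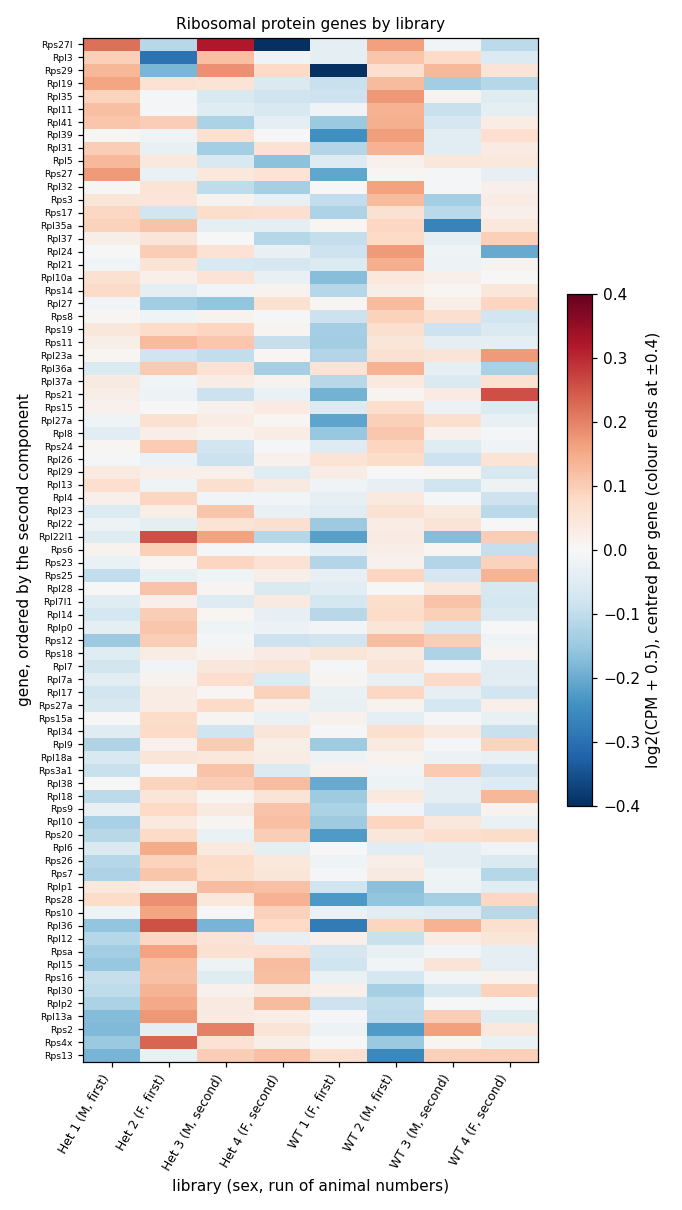
Log2(CPM + 0.5) of 79 of the 80 genes (vertical axis, ordered by the second component) in each of the 8 libraries (horizontal axis), centred on each gene's mean, red above and blue below it, with colours ending at ±0.4. Wild type replicate 1 is blue over many genes, and the 2 males of the first run, Het 1 and WT 2, are blue at the bottom, where Rps2 and Rps13 are.

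Between the runs of animal numbers, 0 of 80 members were called, beside 0.382% of all genes, and 6 members had an unadjusted p under 0.05, against 10.2% of all genes. Rps2, a protein at the entry of the messenger RNA channel, came nearest. In the first run it stood at 217 CPM in heterozygous replicate 1, 238 CPM in heterozygous replicate 2, 241 CPM in wild type replicate 1 and 209 CPM in wild type replicate 2. In the second run it stood at 282 and 254 CPM in heterozygous replicates 3 and 4 and at 274 and 252 CPM in wild type replicates 3 and 4.

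All 4 second-run values of Rps2 were above all first-run values, in either genotype. Second minus first run, the difference was 0.23 ± 0.05 (log2, SE; edgeR adjusted p 0.0683). Rps2 passed the threshold with no filter, with DESeq2, with RIN as a term and without wild type replicate 1 (edgeR adjusted p 0.0180), and without any 1 of the other libraries it did not. Within each run the sexes were apart: first-run males were below first-run females, and second-run males above second-run females.

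Rps13, a small-subunit protein that contacts the large subunit, followed with 63.8, 71.0, 77.7 and 78.8 CPM in heterozygous replicates 1 to 4 and 75.9, 60.6, 77.6 and 77.5 CPM in wild type replicates 1 to 4. The first-run males were the lowest libraries, and its run difference was 0.20 ± 0.06 (log2, SE; edgeR adjusted p 0.189). Rps29, a small zinc-binding protein of the subunit head, had a run difference of 0.22 ± 0.07 (edgeR adjusted p 0.252). Its values were 51.9, 41.5, 53.7 and 49.9 CPM in heterozygous replicates 1 to 4 and 34.3, 49.5, 51.8 and 49.0 CPM in wild type replicates 1 to 4, so both first-run females were low.

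Between the sexes, 0 of 80 members were called, beside 0.0288% of all genes, and every member had an adjusted p of 0.9997 in edgeR. The highest values, male minus female on the log2 scale, were those of the scarce Rps27l (0.40 ± 0.22), Rps29 (0.25 ± 0.09) and Rpl3 (0.20 ± 0.05). Rpl3 stood at 305 and 311 CPM in the males labelled heterozygous and 308 and 301 CPM in the males labelled wild type, against 233 and 283 CPM and 278 and 275 CPM in the females. All males were above all females. Rpl30, whose product regulates its own splicing in yeast, had the lowest value (-0.14 ± 0.06).

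The genotype difference itself was compared between the sexes, 2 mice in each cell of the design. For this interaction 0 of 80 members were called, as were 0% of all genes, and 3 members had an unadjusted p under 0.05, against 2.64% of all genes. The median was -0.08 (males minus females) against 0.00 over all genes. Of 80 members, 59 were below 0 and 21 above, beside 50.4% of all genes above 0. Without wild type replicate 1 the median was -0.04, with 48 of 80 below 0. Leaving out other first-run libraries gave near values. Without wild type replicate 2 it was -0.04, with 57 below 0. It was -0.05 without heterozygous replicate 1 and -0.06 without heterozygous replicate 2, each with 56 below 0. Without any 1 second-run library it lay between -0.11 and -0.08. Wild type replicate 1 is 1 of 2 females labelled wild type and the lowest of all in summed level.

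Rpl36, a large-subunit protein, had the lowest interaction value. In males it stood at 30.6 and 30.0 CPM in the libraries labelled heterozygous and at 36.3 and 37.7 CPM in those labelled wild type. In females the values were 40.9 and 36.1 CPM against 28.0 and 35.8 CPM. The order of the group means thus turned between the sexes, with an interaction of -0.56 ± 0.17 (SE; edgeR adjusted p 1). Rpl10 had an interaction of -0.29 ± 0.11, also with an adjusted p of 1.

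Other genes of the ribosome and of translation showed little genotype difference as well. Of the 4 ribosomal proteins outside the name pattern, Gnb2l1 (RACK1, a scaffold on the small subunit) had 0.08 ± 0.05 and Fau, made as a fusion with a ubiquitin-like protein, had -0.04 ± 0.09. Rpl36al had -0.04 ± 0.13, and none of the 4 was called. Rpl5 and Rpl11, which with 5S RNA can bind MDM2, had -0.02 ± 0.06 and 0.00 ± 0.06.

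The 14 other mRNAs described with a pyrimidine tract had a median of -0.01, with 7 above 0. The lowest p among them was that of Tpt1 (-0.10 ± 0.05), a growth-linked protein. The 47 initiation, elongation and release factors had a median of 0.00, with 26 above 0 and Eif5a, an elongation factor, at 0.13 ± 0.05. The 53 genes of ribosome assembly and RNA polymerase I had a median of 0.03, with 29 above 0 and Ftsj3, an assembly methyltransferase, at -0.18 ± 0.08. No gene of these 3 lists was called.

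The 28 genes of mTORC1 signalling and control of translation had a median of 0.00, with 14 above 0. Among them Eif4ebp1, a repressor of translation initiation, had -0.58 ± 0.26 (edgeR adjusted p 0.599). Its mean level was low, 2.54 CPM under the heterozygous label and 3.80 CPM under the wild type label. The 10 tested p53 targets had a median of 0.06, with 6 above 0, and Cdkn1a, a cell-cycle inhibitor, at -0.44 ± 0.13 (edgeR adjusted p 0.297). The 76 tested mitochondrial ribosomal proteins, which build the separate ribosome of mitochondria, had a median of 0.00 with 36 above 0. Mrpl48 among them had -0.13 ± 0.06. None of these genes was called. Among the cell-type lists, neurons (8 of 8 above 0, median 0.04), cortical excitatory neurons (5 of 8, 0.09), astrocytes (1 of 6, -0.02), oligodendrocytes (4 of 6, 0.01) and endothelial cells (1 of 6, -0.14) had no called gene.

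The genes whose level over the 8 libraries was most like the mean centred level of the members were Me1 (Pearson r = 0.97), the cytosolic malic enzyme, Gcnt2 (0.94), Vcp (0.93), an ATPase that unfolds ubiquitin-tagged proteins, Colec12 (0.93) and RP23-168M5.3 (0.93). They were the highest of all non-member tested genes, so the values describe a ranking over 8 libraries that share their scaling, and have no p.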

How the data were processed

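The authors deposited 1 table of raw read counts per gene symbol, with 1 column for each of the 8 libraries. STAR 2.5.2b, HTSeq and the build mm10 are named in and credited here to the submitters' processing notes. No source used here gives the annotation, strand setting or handling of reads with several matches, so reads of antisense or near-identical genes cannot be told apart.

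The counts were fitted over all genes with edgeR 4.0.16 in R 4.3.3 (filterByExpr with a minimum count of 10, 13879 genes, TMM scaling, robust quasi-likelihood F-test, Benjamini-Hochberg adjusted p under 0.05), with sex and genotype as terms. Further fits added the run of animal numbers, the interaction or a block for each combination of sex and run. CPM are TMM-scaled, and logs used a pseudocount of 0.5 CPM. DESeq2 1.42.0 and limma 3.58.1 were alternatives. The pipeline was tested on simulated data. Coordinates and lengths come from GENCODE release M21 (GRCm38), which matched 80 of 80 members.

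Named genes were the 5 largest rises and falls, the 4 highest and 4 lowest per kilobase, and the 4 most and 2 least variable members. Paralogs with their partners, members without overlap and the 5 genes of most like pattern were also named. The gene of smallest p was named in each other list outside the cell types, and in the cell-type lists the called genes were named. Other genes, such as Rps2, Rps13 and Rpl30, were named after their values were seen. The members and lists were chosen with earlier results of these data known. Libraries are separate mice per the labels' titles. Values of 2 genes are not reported here and 1 of them is not drawn, though both entered the fits and counts.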

Additional observations from a re-analysis of the deposited data

Results flagged for a closer look

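In 5 of 64 groups of 4 libraries examined, 1 library stood far from the other 3 by Dixon's criterion, which chance does in about 1 in 20 groups. Wild type replicate 1 did so in 3 of them. Its Rps29 level was 34.275 CPM against 49.0 to 51.8 CPM in the other libraries labelled wild type. Its Rps20 level was 61.276 CPM against 74.2 to 75.6 CPM. Its summed small-subunit level was 3741.9 CPM against 3895 to 3910 CPM. Wild type replicate 2 had a Rpl32 level of 105.27 CPM against 93.7 to 95.3 CPM. Heterozygous replicate 1 had a ratio of large-subunit to small-subunit levels of 1.5912 against 1.52 in each of the other 3.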

How the results depend on the processing

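Counts of members called between genotypes, between sexes and for the interaction were 0 under every alternative run for them: other scalings, filters, tests, terms, thresholds, subsets and leaving out each library. Between the runs of animal numbers the count of 0 became 1, always Rps2, with no filter (adjusted p 0.0265), with DESeq2's Wald test (0.0406), with RIN as a term (0.0134) and at an adjusted p under 0.10, and ranged from 0 to 1 when 1 library was left out, with 1 without wild type replicate 1. The adjusted p of Rps2 ranged from 0.0134 to 0.287 over its alternatives. The median genotype log2 fold change was -0.011 in males alone, 0.069 in females alone and 0.01 to 0.05 when 1 library was left out. Without 1 library, members that kept their sign ranged from 0.05 (without heterozygous replicate 2) to 0.21 for Rpl22l1, -0.13 (without heterozygous replicate 2) to -0.01 (without heterozygous replicate 1) for Rps12, -0.13 to -0.04 (without wild type replicate 2) for Rpl32, -0.14 to -0.03 (without wild type replicate 4) for Rpl23a, -0.10 to -0.03 (without wild type replicate 4) for Rps25 and 0.03 (without heterozygous replicate 2) to 0.14 for Rps4x. Among 27 named members, 12 that were not called changed sign. With no scaling beyond the total count, Rps27l was -0.0018. With 1 library left out, the lowest and highest log2 fold changes were -0.029 and 0.079 for Rpl10, -0.0085 and 0.056 for Rpl22, -0.0017 and 0.037 for Rpl29, -0.089 and 0.022 for Rpl3, -0.129 and 0.060 for Rpl36, -0.048 and 0.076 for Rpl39. They were -0.024 and 0.083 for Rpl41, -0.012 and 0.040 for Rpl7, -0.049 and 0.013 for Rpl7l1, -0.068 and 0.063 for Rps20, -0.084 and 0.116 for Rps27l and -0.0016 and 0.197 for Rps29. The cause of these changes was not tested. Replicate numbers were given in accession order and pair no libraries. Each combination of sex and run holds 1 library of each genotype, and a fit with these 4 combinations as a block, added after seeing the data, called 124 of all genes against 37 and 0 members, with a median of 0.03 and a Rps27l value of -0.00033. The sexes hold 2 mice per genotype, which limits what an interaction can show.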
